A study of Drosophila melanogaster with 3 samples.

Results

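The acj6-positive neurons described here are larval fly brain cells chosen by a rule on their transcripts. A barcode was taken as a cell where it held at least 1000 UMIs (unique molecular identifiers, each marking 1 captured RNA molecule), at least 500 genes and at most 20% mitochondrial UMIs. It was called acj6-positive where it also held at least 3 acj6 UMIs and no UMI of dpn, repo or unc-4. The rule found 2358 such cells among 44461 called cells: 833 of 15194 in the mud library, 776 of 14415 in the nanobody library and 749 of 14852 in the control library. They were set against all other called cells with an elav UMI of the same library, which numbered 13825 in mud, 13226 in nanobody and 13671 in control. Levels are given as CPM, a gene's UMIs per 1000000 UMIs summed over the cells of a set, and they are compared between sets for 1 gene at a time, not between genes.

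The series holds 1 single-cell library per genotype, prepared by the GEM-X 3′ protocol of 10x Genomics. The cells were type 1 neuroblasts and their lineages, sorted by FACS from brains of larvae that were 72 to 96 h past egg laying and raised at 25 °C. Every genotype had a GFP-tagged myosin light chain, Sqh::GFP, on the X chromosome, and worGal4 with UAS-mCherry::Jupiter on chromosome 3. The mud library added the allele mud4 on X. The nanobody library added a UAS transgene on chromosome 3 labelled ALDInscuteable RockKinase domain-VhhGFP4-HA. The control library had neither. The driver worGal4 uses the promoter of worniu, a gene expressed in neuroblasts, and VhhGFP4 is a nanobody that binds GFP. The series title places the study on sibling cell size in asymmetric neural stem cell division. How many brains were pooled per library is not given in the sources used here, and all libraries carry the same batch label.

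The gene acj6 encodes a POU-domain homeodomain transcription factor, known in flies for the identity of olfactory neurons, of neurons in the optic lobe and of cholinergic neurons of the nerve cord. A neuroblast divides again and again and gives off ganglion mother cells, whose daughter neurons inherit transcription factors typical of their lineage and birth time. Cholinergic neurons make acetylcholine with ChAT, load it into vesicles with VAChT and take choline back up with ChT, and ChAT and VAChT share their first exon in 1 locus. The factor unc-4 is another homeodomain protein of cholinergic lineages, repo marks glia, dpn marks neuroblasts and elav marks neurons.

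Library totals were 125857942 UMIs in mud, 127824556 in nanobody and 120307337 in control. The acj6-positive cells were deeper than the other elav-positive cells, with median UMIs per cell of 7708 against 6178 in mud, 8573.5 against 6911.5 in nanobody and 7289 against 6597 in control. Between libraries, 78 barcodes of called cells were shared by mud and nanobody, 66 by mud and control and 59 by nanobody and control. A doublet score placed 8.04% of acj6-positive cells in mud, 8.76% in nanobody and 8.01% in control among the cells most like simulated mixtures. Of all called cells, 6.07%, 5.76% and 5.94% were so placed, shares set beforehand from the number of called cells. Likely doublets were thus more frequent among acj6-positive cells in every library, and they were kept. The mud transcript was at 33.6 CPM (95% exact Poisson interval 29.5 to 38.2) in the acj6-positive cells of mud, 20.9 (17.7 to 24.5) in those of nanobody and 21.7 (18.2 to 25.7) in those of control. A 3′ count does not check a named allele. Parts of insc and Rok are named in the nanobody transgene. In acj6-positive cells insc was at 7.60 CPM in nanobody, 4.60 in control and 3.99 in mud. Rok was at 99.0 CPM (92.0 to 106) in nanobody and 75.5 (68.7 to 82.7) in control. In mud, which lacks the transgene, Rok was at 92.7 CPM (85.7 to 100). A Rok level above control was thus not particular to nanobody. Whether transgene reads add to either count was not tested. All intervals cover counting error only.

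acj6 itself (FBgn0000028; X:15350239-15379064, minus strand, BDGP6.54 in Ensembl release 115, where it overlaps Pp1-13C on the same strand) had a median of 10 UMIs per acj6-positive cell in mud, 13 in nanobody and 11 in control, with highest values of 54, 45 and 54. Its summed level was 1391 CPM in the acj6-positive cells of mud, 1452 in those of nanobody and 1553 in those of control, against 19.3, 24.3 and 21.6 CPM in the other elav-positive cells. These values follow from the rule. Barcodes of 20 to 200 UMIs, taken here as free RNA, carried acj6 at 103 CPM in mud, 90.3 in nanobody and 82.3 in control. Just inside the threshold lay 55, 30 and 46 cells with exactly 3 UMIs, and just outside it lay 54, 61 and 50 cells with exactly 2, against 12309, 11728 and 12619 cells with none. The acj6-positive cells held 82.8% of all acj6 UMIs of called cells in mud, 80.6% in nanobody and 81.2% in control. Of the cells with at least 3 acj6 UMIs, 95 in mud, 104 in nanobody and 90 in control held an unc-4 UMI and were left out, which is 10.1%, 11.5% and 10.6% of them. A dpn UMI left out 17, 20 and 8 cells, and a repo UMI 1, 4 and 3.

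**Figure D1:**
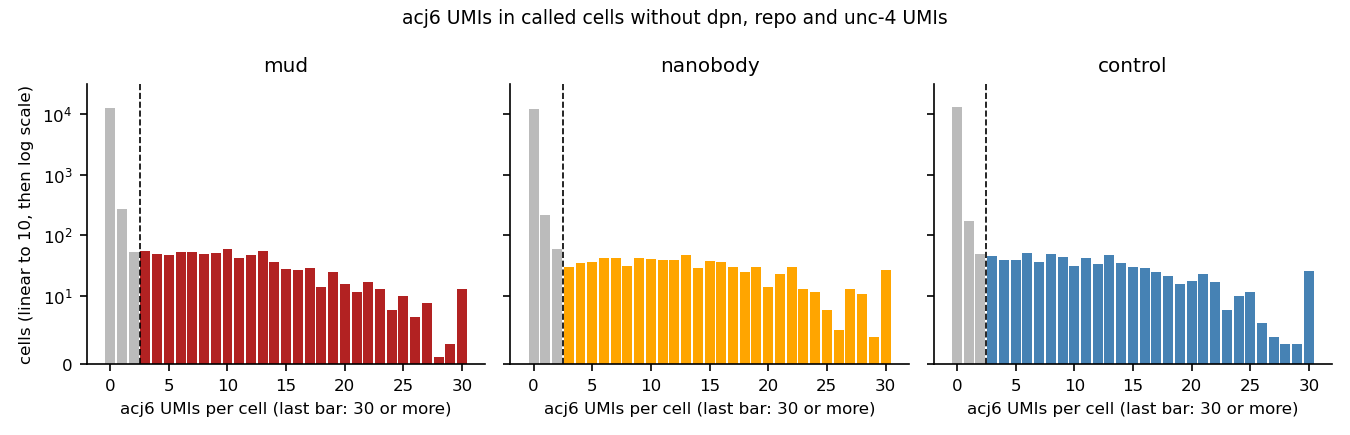
Number of called cells (vertical axis, linear to 10 and then logarithmic) by acj6 UMIs per cell (horizontal axis, last bar 30 or more), among cells without dpn, repo and unc-4 UMIs, for mud, nanobody and control. Coloured bars right of the dashed line are the acj6-positive cells; 54, 61 and 50 cells with 2 UMIs lie just left of it, and 55, 30 and 46 cells with 3 UMIs just right of it.

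The cells held neuronal transcripts that the rule did not use. An elav UMI, not asked for by the rule, was absent from 6 acj6-positive cells in mud, 5 in nanobody and 10 in control. After each cell was thinned to 1000 UMIs, nSyb, a vesicle fusion protein of synapses, was seen in 29.2% of acj6-positive cells in mud, 25.1% in nanobody and 25.1% in control, against 17.6%, 16.0% and 16.2% of other elav-positive cells and none of 48, 37 and 59 repo-positive cells. Of the 3 further markers set for these cells, jim, a zinc finger factor, was seen in 80.1%, 81.8% and 79.2% of thinned acj6-positive cells, against 43.3%, 47.3% and 41.8% of other elav-positive cells and 54.2%, 51.4% and 39.0% of repo-positive cells. Sox102F, a SoxD family factor, was seen in 125 of 833, 128 of 776 and 132 of 749 thinned acj6-positive cells, the highest share being 17.6%, against 5.21%, 5.08% and 4.67% of other elav-positive cells. fuss, of the Ski/Sno family, was seen in 6.36%, 7.09% and 4.54%, against 1.26%, 1.10% and 1.10%. The neuronal label therefore stood on elav and nSyb, jim was widespread in all sets, and Sox102F and fuss each marked a minority.

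Across 8557 genes tested between acj6-positive and other elav-positive cells, 2170 were higher (25.4%) and 2381 lower (27.8%), or 53.2% in all, at an adjusted p under 0.05 (edgeR quasi-likelihood test with Benjamini-Hochberg adjustment, library as a term). The 3 libraries served as replicates of this contrast although they are of 3 genotypes. The p-values take in only variation between these libraries, with each gene's estimate of it drawn towards those of other genes. Each standard error (SE) was derived from the fold change and the test statistic, and is not the spread of the 3 library ratios. The median log2 fold change was -0.02. More genes were called than not, so each count below is read against these shares and each call is given with its size. How many of all tested genes had no overlap between the library values of the sets was not counted. A lack of overlap therefore only describes the genes it is given for. The same test on cells with an nSyb UMI in both sets, which compares neurons that already express a synaptic gene, called 375 of 7926 genes higher (4.73%) and 572 lower (7.22%), with 348 of the 375 and 400 of the 572 also called in the same direction over all cells. The cells with nSyb are part of all cells, so the shared calls are no separate check.

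The 12 genes with the highest fold changes, among called genes with at least 50 CPM in acj6-positive cells, included the factors Ets96B, C15, Drgx, PHDP and HLH4C. Ets96B, an ETS family factor, was at 105 CPM in the acj6-positive cells of mud, 60.2 in nanobody and 79.8 in control, against 0.725, 0.258 and 0.635 CPM in the other elav-positive cells. Every acj6-positive value lay far above every other value, a log2 fold change of 7.30 (SE 0.15, edgeR adjusted p = 5.06e-07). C15, a homeodomain factor, was at 83.6, 53.2 and 87.0 CPM against 2.17, 2.64 and 2.65 CPM, a log2 fold change of 4.92 (SE 0.17, edgeR adjusted p = 1.70e-06). Drgx, a paired-like homeodomain factor, was at 439, 547 and 526 CPM against 24.2, 33.5 and 26.1 CPM, a log2 fold change of 4.22 (SE 0.06, edgeR adjusted p = 2.23e-07). For both genes the groups did not overlap. PHDP, another homeodomain factor, was at 91.6, 72.3 and 65.0 CPM against 4.21, 5.20 and 3.53 CPM, a log2 fold change of 4.18 (SE 0.13, edgeR adjusted p = 1.17e-06). HLH4C, a basic helix-loop-helix factor, was at 106, 66.5 and 76.3 CPM against 5.20, 11.3 and 7.89 CPM, a log2 fold change of 3.42 (SE 0.30, edgeR adjusted p = 8.75e-05). Here too every library's acj6-positive cells exceeded all 3 sets of other cells.

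The surface gene beat-IIa, of the Beaten path immunoglobulin family that binds Sidestep proteins, was at 587, 698 and 540 CPM in the acj6-positive cells of mud, nanobody and control, against 54.4, 44.8 and 34.5 CPM in other elav-positive cells, a log2 fold change of 3.83 (SE 0.11, edgeR adjusted p = 9.16e-07). fuss was at 181, 242 and 161 CPM against 27.9 to 39.0 CPM, a log2 fold change of 2.63 (SE 0.14, edgeR adjusted p = 7.56e-06). The other 5 genes of the 12 with the highest fold changes were sens-2, a zinc finger factor of the senseless family (2.56), CG33143 (2.46), nolo (2.34), the BTB factor bab1 (2.20) and CG43902 (1.93), all without overlap between the sets. Among cells with nSyb, the log2 fold change was 6.43 for Ets96B, 4.34 for C15, 4.14 for Drgx, 3.41 for PHDP, 2.80 for HLH4C, 2.38 for fuss and 2.29 for beat-IIa.

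**Figure D2:**
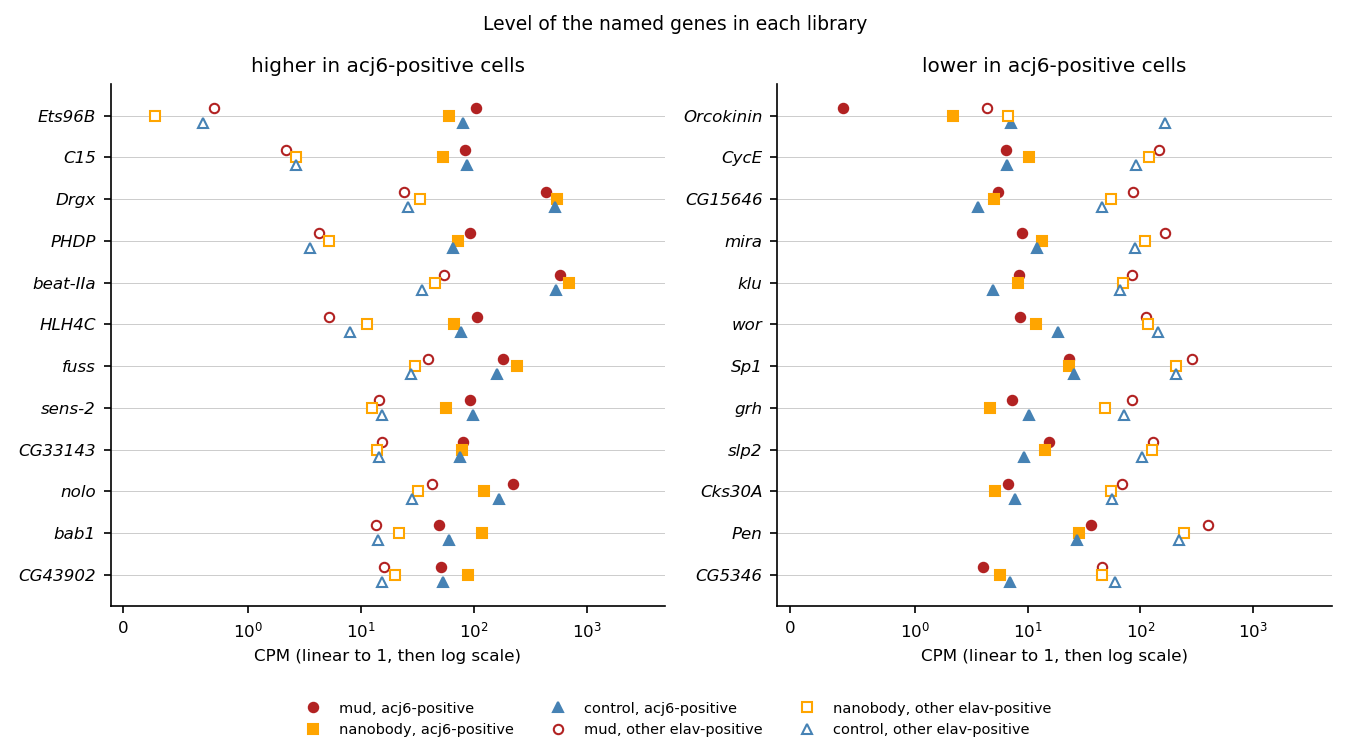
CPM (horizontal axis, linear to 1 and then logarithmic) of the 12 genes with the highest and the 12 with the lowest fold changes, with filled symbols for acj6-positive cells and open symbols for other elav-positive cells of mud, nanobody and control. Filled and open symbols do not overlap except for Orcokinin, where the open control symbol at 164 stands far from the open mud and nanobody symbols at 4.33 and 6.62.

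The 12 genes with the lowest fold changes, among called genes with at least 50 CPM in other elav-positive cells, included cell cycle and neuroblast genes. CycE, the cyclin of S-phase entry, was at 6.41, 10.2 and 6.58 CPM in the acj6-positive cells of mud, nanobody and control, against 147, 120 and 91.8 CPM in other elav-positive cells, a log2 fold change of -3.90 (SE 0.14, edgeR adjusted p = 2.03e-06). mira, which carries Prospero into the daughter cell of a neuroblast, was at 8.83, 13.4 and 12.2 CPM against 167, 109 and 90.3 CPM, a log2 fold change of -3.34 (SE 0.20, edgeR adjusted p = 1.46e-05). Neither pair of sets overlapped. The neuroblast factors klu (-3.30), wor (-3.25) and grh (-3.18), the temporal factor slp2 (-3.17), the zinc finger factor Sp1 (-3.21), the cell cycle gene Cks30A (-3.17), the importin Pen (-3.15), CG15646 (-3.67) and CG5346 (-3.15) were also lower, again without overlap. The rule removed cells with a dpn UMI from the acj6-positive cells only; against other cells that also lacked dpn, repo and unc-4, the log2 fold change was -2.06 for CycE, -2.40 for mira, -2.05 for klu and -3.04 for wor. The 7 neuroblast markers tested, dpn aside, were all lower, and their summed level was 147 to 162 CPM in acj6-positive cells, against 918 to 1165 CPM in other elav-positive cells.

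Orcokinin, a neuropeptide, had the lowest fold change of all, at 0.427, 2.17 and 7.07 CPM against 4.33, 6.62 and 164 CPM (log2 fold change -3.92, SE 0.41, edgeR adjusted p = 2.09e-04). The sets overlapped, and 3 control cells held 96.3% of the 16527 UMIs behind its control level. With likely doublets removed the log2 fold change was -0.33 (edgeR adjusted p = 0.634), which did not pass.

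The cholinergic genes VAChT, ChAT and ChT were higher in acj6-positive cells, VGlut and Gad1 were lower, and VGAT was higher. VAChT was at 314, 316 and 389 CPM in the acj6-positive cells of mud, nanobody and control, against 101, 117 and 129 CPM in other elav-positive cells, a log2 fold change of 1.59 (SE 0.05, edgeR adjusted p = 1.05e-06). ChAT followed, at 95.7, 103 and 124 CPM against 31.5, 35.9 and 36.0 CPM (1.68, SE 0.06, edgeR adjusted p = 1.56e-06), though its reads and those of VAChT come from 1 locus and may not be fully separable. The choline transporter ChT had a log2 fold change of 1.69 (SE 0.15, edgeR adjusted p = 8.44e-05). None of these 3 overlapped between the sets. VGlut, the vesicular transporter of glutamate, was at 82.3, 52.4 and 36.2 CPM against 183, 138 and 121 CPM (-1.36, SE 0.10, edgeR adjusted p = 3.84e-05). Gad1, which makes GABA, was at 16.8, 4.07 and 16.4 CPM against 63.2, 41.6 and 53.0 CPM (-2.11, SE 0.23, edgeR adjusted p = 2.53e-04). The monoamine transporter Vmat (-2.29) and the dopamine enzyme ple (-3.55, with 0.570 CPM in mud and none in nanobody or control) were lower too. VGAT, which loads GABA, was higher (0.62), as was Tbh, which makes octopamine (1.97). In all, 5 of 13 transmitter genes tested were higher and 6 lower. Among cells with nSyb, VAChT stayed higher (0.72) and VGlut lower (-2.28), whereas VGAT was at -0.21; among cells without nSyb, VGlut was at 0.38.

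After thinning to 1000 UMIs, a VAChT UMI was seen in 23.6% of acj6-positive cells in mud (exact 95% binomial interval 20.8 to 26.7), 25.1% in nanobody and 25.0% in control. Among other elav-positive cells the shares were 7.71%, 8.44% and 8.77%, and among repo-positive cells, which should lack the gene, none of 48, 37 and 59, which allows shares of up to 6.25%, 8.11% and 5.08%. VGlut was seen in 4.08%, 3.61% and 2.27% of thinned acj6-positive cells, against 7.14%, 6.19% and 6.09% of other elav-positive cells, and Gad1 in 0.720%, 0.773% and 0.267%, against 2.86%, 2.21% and 2.60%. Among repo-positive cells VGlut and Gad1 were each seen in 1 cell in mud (2.08%) and none in nanobody and control. So few repo-positive cells do not tell the thinned VGlut and Gad1 shares of acj6-positive cells apart from background. Before thinning, 9 acj6-positive cells in mud, 3 in nanobody and 2 in control held 3 or more Gad1 UMIs. At full depth, which is greater in acj6-positive cells, VAChT was seen in 70.7%, 69.2% and 68.8% of them, and 24.8%, 28.1% and 28.2% held none of VAChT, VGlut and Gad1. Few cells held 2 transmitters: at 3 or more UMIs of each, VAChT and VGlut met in 7 cells in mud, 9 in nanobody and 4 in control, among 328, 315 and 303 cells with VAChT and 44, 27 and 25 with VGlut.

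**Figure D3:**
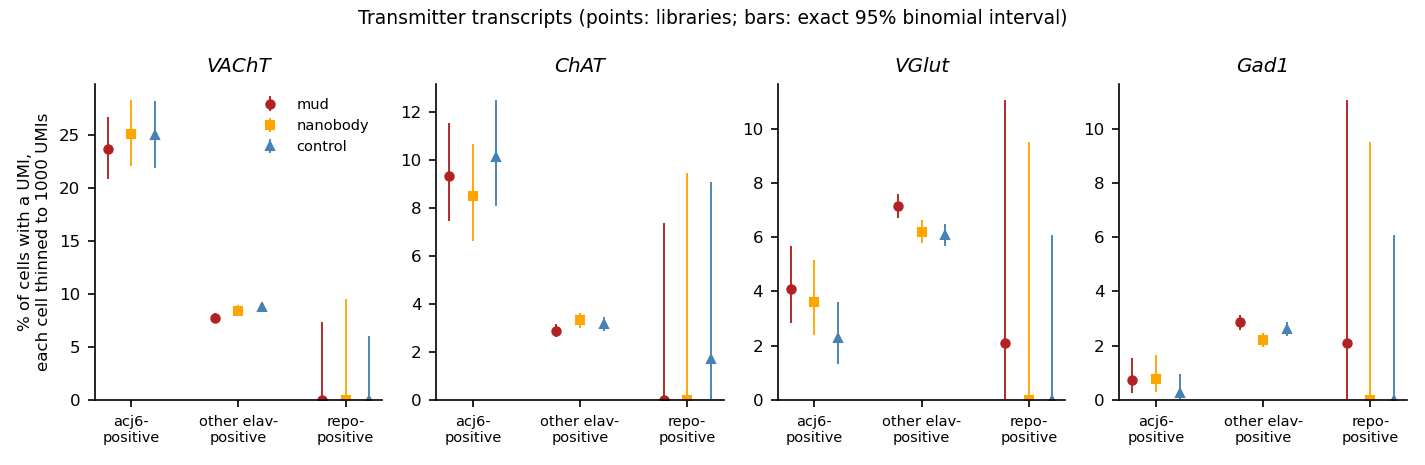
Percent of cells (vertical axis, from 0) with a UMI of VAChT, ChAT, VGlut and Gad1 after thinning each cell to 1000 UMIs, in acj6-positive, other elav-positive and repo-positive cells of mud, nanobody and control, with exact 95% binomial intervals as bars. VAChT lies at 23.6% to 25.1% in acj6-positive cells and at 7.71% to 8.77% in other elav-positive cells, and the order is the other way round for VGlut and Gad1.

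Genes of the synapse were mostly higher in acj6-positive cells than in the other elav-positive cells, both over all cells and among cells without nSyb, and not among cells with nSyb. Of 12 such genes tested, 10 were higher and none lower, with a median log2 fold change of 0.57. nSyb was at 457, 392 and 524 CPM in the acj6-positive cells of mud, nanobody and control, against 338, 270 and 305 CPM in other elav-positive cells (0.62, SE 0.06, edgeR adjusted p = 1.24e-04). The calcium sensor Syt1 (0.93), the active zone gene Rim (0.87), the fusion protein Snap25 (0.83) and the scaffold brp (0.46) were higher as well, while cpx (0.10, edgeR adjusted p = 0.171) and Syx1A (0.09, edgeR adjusted p = 0.0617) did not pass. Among cells without an nSyb UMI, 8 of 11 tested were higher and none lower, with a median of 0.69. Among cells with nSyb, none of the 12 was higher and 6 were lower, with a median of -0.17, and nSyb itself chose the cells of both of these sets. Genes of newborn neurons and of the Notch pathway went the other way: 1 of 9 was higher, pros, and 8 were lower, among them nerfin-1 at -0.68. The other elav-positive cells here still included cells with a dpn UMI. Among cells with nSyb, 1 of 8 tested was higher and 4 were lower. pros, which ends self-renewal in the daughters of neuroblasts, was at 12031, 15633 and 14246 CPM against 3727, 6122 and 4836 CPM, a log2 fold change of 1.57 (SE 0.06, edgeR adjusted p = 2.35e-06) and 0.80 among cells with nSyb.

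**Figure D4:**
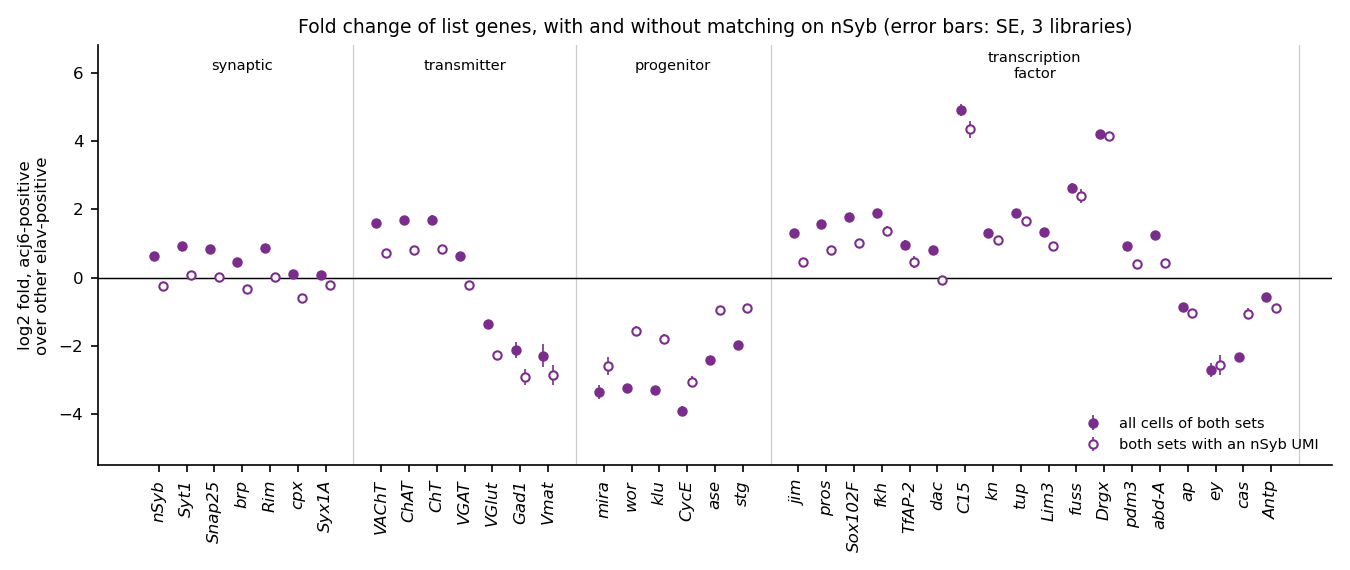
Log2 fold change of acj6-positive over other elav-positive cells (vertical axis) for synaptic, transmitter, progenitor and transcription factor genes, over all cells (filled) and over cells with an nSyb UMI in both sets (open). Bars show the SE derived from the test statistic. Synaptic genes lie above 0 over all cells and around or below 0 among cells with nSyb, whereas Drgx (4.22 and 4.14), C15 (4.92 and 4.34) and tup (1.88 and 1.65) stay high in both.

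Lineage factors moved both ways within a family. Among 7 LIM homeodomain factors 3 were higher and 4 lower. tup (islet) was at 438, 358 and 465 CPM in the acj6-positive cells of mud, nanobody and control, against 105, 121 and 126 CPM in other elav-positive cells, a log2 fold change of 1.88 (SE 0.09, edgeR adjusted p = 4.36e-06). Lim3 was at 299, 181 and 238 CPM against 113, 91.7 and 82.7 CPM, a log2 fold change of 1.35 (SE 0.09, edgeR adjusted p = 2.37e-05). Neither overlapped, and both stayed higher among cells with nSyb (1.65 and 0.92). ap (-0.87) and Awh (-2.33) were lower; Lim1 was higher over all cells (0.57, with overlap) and at -0.41 among cells with nSyb. jim was at 7683, 10438 and 10662 CPM against 3072, 4480 and 4522 CPM (1.30, SE 0.03, edgeR adjusted p = 8.02e-07), and Sox102F at 289, 391 and 369 CPM against 96.9, 114 and 103 CPM (1.77, SE 0.05, edgeR adjusted p = 1.05e-06). Of 26 factors known from nerve cord hemilineages, 11 were higher and 15 lower.

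Lists of genes known from other lineages were mixed in most cases, and the anterior brain list was lower. Of 10 genes of the T4/T5 optic lobe lineage 5 were higher and 3 lower, with fkh at 1.90 and dac at 0.82 (-0.071 among cells with nSyb), and with grn at -1.71 and SoxN at -0.34. Of 8 genes of antennal lobe projection neurons 4 were higher and 4 lower, led by C15 and by kn, an EBF family factor, at 475, 232 and 353 CPM against 160, 127 and 140 CPM (1.30, SE 0.12, edgeR adjusted p = 8.65e-05). Of 9 mushroom body genes 5 were higher and 4 lower, with ey, the Pax6 factor of Kenyon cells, at -2.72 and retn at -2.29. Among cells with nSyb none of these 9 was higher and 4 were lower. None of 7 anterior brain factors was higher and 5 were lower. Among 9 nerve cord genes, the Hox genes abd-A (1.25) and Abd-B (1.39) were higher, and Antp (-0.56), Scr (-2.02) and tsh (-0.57) were lower. Of 10 temporal genes 6 were higher and 2 lower: Imp (0.17), chinmo (0.39), br (0.63) and mamo (0.56) were a little higher, and cas was at -2.34. Imp was at -0.36 among cells with nSyb.

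Surface and guidance genes were mostly higher: 22 of 31 were higher and 3 lower, and among cells with nSyb 12 were higher and 2 lower. Con (Connectin), a homophilic adhesion protein, was at 819, 615 and 668 CPM in the acj6-positive cells of mud, nanobody and control, against 215, 204 and 195 CPM in other elav-positive cells, a log2 fold change of 1.81 (SE 0.06, edgeR adjusted p = 1.58e-06). The receptors robo3 (1.25) and Toll-6 (1.04), the secreted semaphorin Sema2b (1.25), Dscam3 (1.47) and trn (0.47) were higher, and the adhesion protein Nrg was lower (-0.40). Of 21 beat and side genes, which encode paired immunoglobulin surface proteins, 18 were higher and none lower, among them beat-Ib (1.87) and beat-Ic (1.61); among cells with nSyb 8 were higher and 4 lower. Of 31 DIP and dpr genes, another set of paired surface proteins, 18 were higher and 5 lower, with DIP-delta at 1.40 and dpr21 at 0.94; among cells with nSyb 3 were higher and 10 lower.

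Markers of other cells and of tissue handling moved as follows. Of 6 glial markers tested, repo aside, none was higher and 5 were lower. Their summed level was 213 to 251 CPM in acj6-positive cells against 361 to 419 CPM in other elav-positive cells. The rule removed cells with a repo UMI from the acj6-positive cells only, and the part of this removal in the glial result was not tested. The blood cell list summed to 4.84 to 7.60 CPM in acj6-positive cells and 5.02 to 11.6 CPM in other elav-positive cells, with NimC1 at 0 in the acj6-positive cells of every library. Eye disc genes summed to 357 to 383 CPM against 248 to 276 CPM, with trp at 0 in both. Of 9 dissociation stress genes 6 were higher and 2 lower, with Hsp23 at 0.83, Hsp27 at 0.48 and Hsp83 at -0.23, and their sum was 7177, 8055 and 6188 CPM against 5956, 6445 and 4685 CPM. Among cells with nSyb 1 of the 9 was higher and none lower. The part of these markers in the results above was not tested.

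The nearest comparison was with unc-4-positive cells, which are cells with at least 3 unc-4 UMIs and no acj6, dpn or repo UMI: 394 in mud, 396 in nanobody and 405 in control. Of 7012 genes tested, 222 were higher in acj6-positive cells (3.17%) and 157 lower (2.24%), or 5.41% in all. None of 12 synaptic genes and none of 8 transmitter genes tested passed in either direction. nSyb was at -0.22 (SE 0.12, edgeR adjusted p = 0.445) and VAChT at 0.31 (SE 0.09, edgeR adjusted p = 0.137). With 5.41% of all genes called, no call in lists this short does not show that the sets are alike in these genes. Of 24 hemilineage factors tested, 5 were higher and 6 lower. Without the mud library the counts were 500 higher and 321 lower, without control 111 and 103, and without nanobody 115 and 88.

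Ets96B had 735, 444 and 485 UMIs in the acj6-positive cells of mud, nanobody and control, against none among the 11613343 UMIs of the unc-4-positive cells. Set against a limit of 3 counts over the 3 unc-4 sets, that is at least 315-fold higher. Drgx, at 439, 547 and 526 CPM, was at 5.33, 0.509 and 0.533 CPM in unc-4-positive cells (7.87, SE 0.37, edgeR adjusted p = 1.69e-04), where its level rested on 21, 2 and 2 UMIs. C15 (6.73), PHDP (5.79) and sens-2 (4.86), each with few UMIs in unc-4-positive cells, were also far higher. Among other lineage and surface genes, Lim3 (4.52), fkh (4.27), HLH4C (4.03), tup (3.35), the T-box factor bi (3.08), beat-IIa (2.74), fuss (2.55), mamo (1.51), Sox102F (1.37), Con (1.47), pros (0.87) and jim (0.52) were higher than in unc-4-positive cells.

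The genes lower than in unc-4-positive cells included Hox genes and lineage factors. grn, a GATA factor, was at 71.8, 69.6 and 62.8 CPM in acj6-positive cells, against 1125, 1138 and 1127 CPM in unc-4-positive cells, a log2 fold change of -4.04 (SE 0.05, edgeR adjusted p = 1.06e-06). The Hox gene Scr was at 1.28, 1.09 and 4.77 CPM against 93.2, 80.0 and 61.3 CPM (-5.08, SE 0.40, edgeR adjusted p = 0.00100). The groups did not come near each other in either gene. Lim1 was at 244, 369 and 438 CPM against 1233, 1234 and 1489 CPM (-1.93, SE 0.12, edgeR adjusted p = 3.92e-04). Antp (-1.80), tsh (-2.25), tey (-3.83), the head gap gene ems (-3.74) and the Pax gene sv (-2.96) were lower as well. Of 7 nerve cord genes tested none was higher and 4 were lower. kn, higher than in all other elav-positive cells, was lower than in unc-4-positive cells (-0.63, with overlap, edgeR adjusted p = 0.0341). Of 21 beat and side genes 3 were higher and 6 lower than in unc-4-positive cells. Of 31 DIP and dpr genes 2 were higher and 9 lower. Against all other elav-positive cells both of these lists had more genes higher than lower. At 3 or more UMIs, a Hox transcript was seen in 18.5% of acj6-positive cells in mud, 12.2% in nanobody and 17.0% in control, against 66.2%, 61.1% and 62.0% of unc-4-positive cells.

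Cholinergic cells were then compared with cholinergic cells, as far as a VAChT UMI marks them: 589, 537 and 515 acj6-positive cells of mud, nanobody and control against 2776, 2863 and 2675 other elav-positive cells. Of 7609 genes tested, 430 were higher (5.65%) and 725 lower (9.53%), or 15.2% in all. Without nanobody 191 were higher, and without control 257. Ets96B was at 127, 74.9 and 101 CPM in acj6-positive VAChT cells, against 2.39, 0.561 and 2.12 CPM in other VAChT cells (5.97, SE 0.18, edgeR adjusted p = 9.13e-06). HLH4C (3.98), Drgx (3.94), C15 (3.84), PHDP (2.69), fuss (2.56), beat-IIa (2.46), tup (1.88), fkh (1.69), Lim3 (1.36), Con (1.17) and kn (0.85) were higher too. The VAChT cells are part of the cells of the wider comparison, so the shared genes are no separate check of it.

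Among those VAChT cells the synaptic genes were lower: 11 of 12 fell below the other VAChT cells and none was higher, with cpx, a clamp of vesicle fusion, at 469, 593 and 751 CPM against 982, 1077 and 1399 CPM (-0.91, SE 0.04, edgeR adjusted p = 2.81e-05), brp at -0.71 and nSyb at -0.46. Asking for a VAChT UMI kept 1641 of 2358 acj6-positive cells but 8314 of 40722 other elav-positive cells. The part of this unequal selection in the synaptic result was not tested. The dopamine receptor Dop1R2 was at 5.88, 3.77 and 4.48 CPM against 53.0, 66.6 and 108 CPM (-3.93, SE 0.20, edgeR adjusted p = 4.99e-05). sals (-4.51) and the neuropeptide sNPF (-3.89) were also among the lowest, but did not pass once cells with 10 or more nSyb UMIs were left out of both sets (-1.30, edgeR adjusted p = 0.102, and -1.32, edgeR adjusted p = 0.0563). The neuropeptides Trissin (-8.46) and Dh44 (-4.92) rested on single cells of mud, which held 6761 of 6793 and 8134 of 8650 UMIs; without mud Dh44 was at -0.90 (edgeR adjusted p = 0.470). ey (-2.61), Gad1 (-2.26), ap (-1.90) and VGlut (-1.65) were lower here as in the wider comparison. Of 31 DIP and dpr genes 3 were higher and 17 lower.

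The acj6-positive cells were not of 1 kind. At 3 or more UMIs, Drgx was held by 37.9% of them in mud, 43.3% in nanobody and 39.7% in control, tup by 47.7%, 39.0% and 44.6%, and kn by 40.8%, 25.0% and 31.8%. Lim1 was held by 22.7%, 35.8% and 35.5%, fkh by 20.6%, 37.4% and 30.4%, and beat-IIa by 20.3%, 32.3% and 26.6%. Ets96B, first by fold change, was held by no more than 9.48%, 6.83% and 7.21%, against 0.0506%, 0.0227% and 0.0439% of other elav-positive cells. These genes thus marked subsets of different sizes.

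The subsets combined in some ways and not in others. Of 169, 251 and 199 cells with 3 or more beat-IIa UMIs in mud, nanobody and control, 137, 212 and 170 also held Drgx, 129, 193 and 152 held SoxN, and 131, 184 and 137 held fkh, but 7, 7 and 11 held kn and 11, 17 and 12 held tup. Among 99, 60 and 87 cells with C15, 76, 45 and 60 held Lim3 and 61, 27 and 47 held kn. kn and tup met in 213, 119 and 155 cells, among 340, 194 and 238 with kn. fuss was held by 50, 65 and 39 cells, of which 29, 28 and 24 held Ets96B, none held C15 in any library, and 0, 1 and 2 held Sox102F. The absence of cells with both fuss and C15 allows a share of up to 0.360%, 0.387% and 0.401% of acj6-positive cells. HLH4C was held by 86, 44 and 57 cells, of which 39, 22 and 29 held the Hox gene abd-A. At this depth a missing UMI does not show a missing transcript.

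Clustering the 2358 cells of the 3 libraries together gave 16 clusters of 299 to 45 cells, and each cluster held cells of every library. Cluster membership came from the same genes that are named here, so the levels are descriptions only. Clusters 1, 10 and 11, of 299, 118 and 116 cells, shared high mamo (5316, 5306 and 5188 CPM) and Drgx (2502, 1941 and 1259 CPM) with low pros (541, 495 and 921 CPM). Of these, cluster 1 was led by cv-c and beat-IIa, cluster 10 by GEFmeso and SoxN with Sox102F at 2511 CPM, and cluster 11 by RunxB with beat-Ic and beat-Ib. The nSyb level in cluster 1 was 59.9 CPM. In contrast pros stood at 45422 CPM in cluster 7, 34509 in cluster 6 and 34542 in cluster 8.

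Several clusters had other transcription factors among their leading genes. Cluster 2 (283 cells) was led by slou and ham, and 17.0% of its cells were among the likely doublets. Cluster 4 (200 cells) was led by Ptx1 at 447 CPM against 3.52 CPM in the other acj6-positive cells, with PHDP. Cluster 5 (199 cells) was led by HLH4C at 997 CPM against 6.93 CPM, with Ubx and abd-A, and cluster 6 (169 cells) by Ets96B at 682 CPM against 25.4 CPM, with bab1 and fuss at 976 CPM. PHDP was also high in cluster 12, at 365 CPM beside 380 CPM in cluster 4, and slou was at 238 CPM in cluster 14 (60 cells) beside 193 CPM in cluster 2. Cluster 7 (127 cells) was led by Reck, B-H1 and B-H2 with Sox102F at 1564 CPM, cluster 8 (120 cells) by the Iroquois factors caup, ara and mirr, and cluster 12 (114 cells) by the T-box genes H15 and mid, with Fas2 at 2861 CPM and Imp at 2624 CPM. Clusters 15 and 16 (51 and 45 cells) both had eve among their leading genes.

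A few clusters stood apart in other ways. Cluster 3 (269 cells) was led by Pen and the progenitor genes wor and cas, and 18.6% of its cells were among the likely doublets. Cluster 9 (119 cells), led by fd102C, nerfin-2, Hmx and Optix, had VGlut at 648 CPM with a UMI in 48.7% of its cells, while the other clusters had VGlut at 2.57 to 86.5 CPM. Cluster 13 (69 cells) was led by Ldh and Cbp53E and had the highest nSyb (2339 CPM) and VAChT (1019 CPM) and the lowest acj6 (633 CPM) and jim (841 CPM) of the 16 clusters, and 21.7% of its cells were among the likely doublets. Cluster 14 (60 cells) was led by CG9016 and Fer1. No cluster is given a cell type name here.

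**Figure D5:**
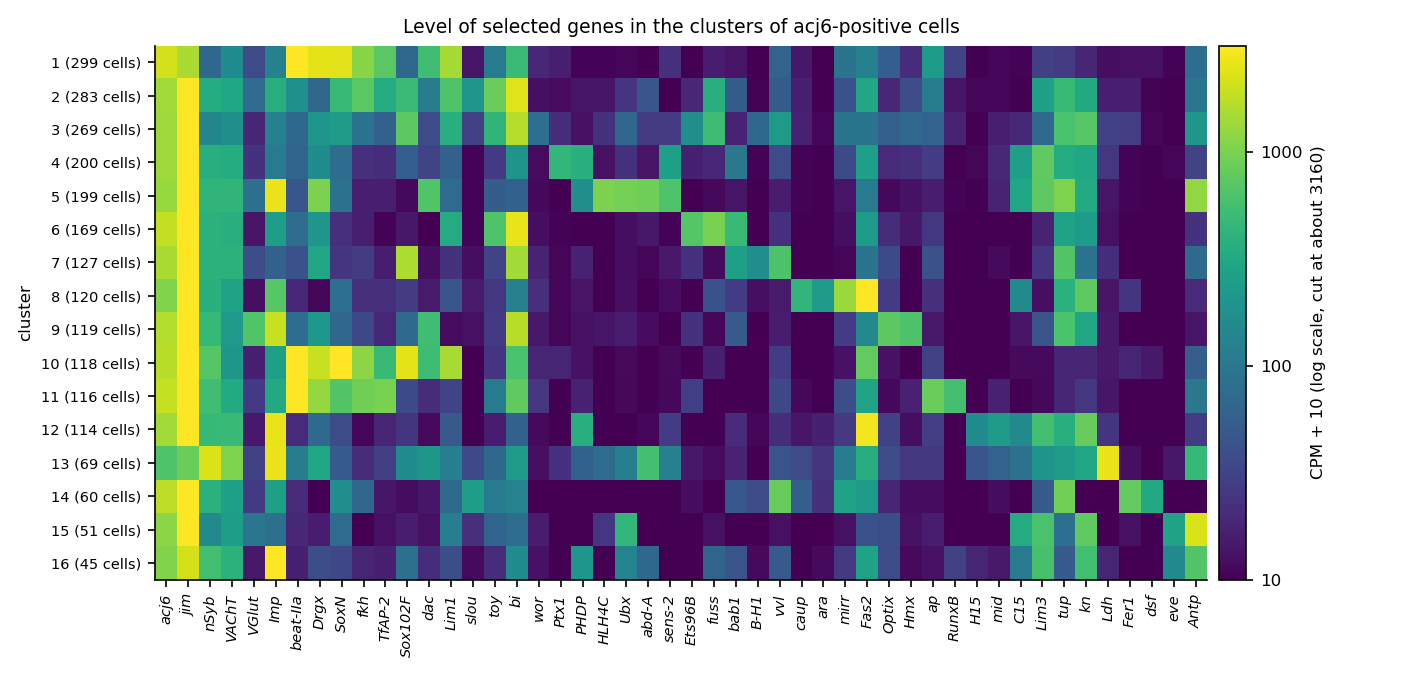
Level of selected genes (horizontal axis) in the 16 clusters of acj6-positive cells (vertical axis, with cell numbers), as CPM plus 10 on a logarithmic colour scale. Ets96B stands out in cluster 6, Ptx1 in cluster 4 and HLH4C in cluster 5, Drgx is bright in clusters 1, 10, 11 and 5, and VGlut in cluster 9.

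With 1 library per genotype, differences between genotypes have no replicate check and no test. acj6-positive cells made up 5.64% of elav-positive cells in mud (827 of 14652, exact 95% binomial interval 5.28 to 6.03), 5.51% in nanobody (771 of 13997, 5.14 to 5.90) and 5.13% in control (739 of 14410, 4.77 to 5.50). The ratio over control was 1.10 in mud (exact interval 0.995 to 1.22) and 1.07 in nanobody (0.970 to 1.19), and both intervals include 1. When cells with a single acj6 UMI were counted in, the ratios were 1.18 (1.08 to 1.28) in mud and 1.12 (1.03 to 1.23) in nanobody, and neither interval includes 1. The mud interval also excluded 1 when cells were thinned to 1000 UMIs (1.12, 1.01 to 1.24) and when cells had at least 2000 UMIs (1.11, 1.001 to 1.23), and it included 1 under the other alternatives. A share of sorted cells depends on the sort as well as on the brain, and these cannot be told apart.

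The levels compared next are sums over all acj6-positive cells of a library, and so over a mix of clusters. The share of cells in each cluster was not compared between genotypes, because genes that lead clusters, among them slou, Fas2 and Ldh, themselves differed past 2-fold. Fewer cells of a cluster and less RNA per cell therefore cannot be told apart from these sums. Of 2839 genes with at least 50 CPM in mud or control, 15 were past 2-fold higher in mud (0.528%) and 2 past 2-fold lower (0.0704%), on the log2 scale after adding 5 CPM, with a median log2 ratio of -0.06. The heat shock gene Hsp70Ab was at 553 CPM in mud (535 to 570) against 115 CPM in control (107 to 124), a log2 ratio of 2.21. The surface gene DIP-alpha was at 33835 CPM in mud against 9338 CPM in control, a log2 ratio of 1.86, though it overlaps CG2875 on the same strand. Barcodes taken as free RNA carried DIP-alpha at 24584 CPM in mud and 18130 CPM in control. Its level in the acj6-positive cells of control was thus below that of free RNA. sordd1 (1.75), the centriole gene Cp110 (1.29) and the ribosomal protein gene RpL39 (1.24) followed. The other elav-positive cells showed log2 ratios of 2.27, 1.75, 2.02, 1.06 and 1.25 for the same 5 genes, and 9 of the 15 genes were past 2-fold higher in them too. How many of all 2839 genes were past 2-fold in those cells was not counted.

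Lowest in mud were slou, a homeodomain factor, at 19.5 CPM in mud against 53.4 CPM in control (-1.25), and Stacl, at 115 CPM against 237 CPM (-1.01). In the other elav-positive cells these stood at -0.26 and -0.12. A slou UMI was seen in 5.88% of acj6-positive cells in mud, against 13.9% in control, and within cluster 2, which slou led, its level was 141 CPM in mud against 274 CPM in control. CG18259 (-0.99), the AP-2 factor TfAP-2 (-0.95) and the surface protein Lac (-0.91) came next, without passing 2-fold. The RNA-binding protein Imp, which is high in early-born neurons, was at 1295 CPM in mud against 768 CPM in control (0.75), close to its log2 ratio of 0.73 in other elav-positive cells. VGlut was at 82.3 CPM in mud against 36.2 CPM in control (1.08).

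Between nanobody and control, 5 of 2815 genes were past 2-fold higher in nanobody (0.178%) and 14 past 2-fold lower (0.497%), with a median log2 ratio of -0.02. Arc1, a capsid-forming gene regulated by neuronal activity, was at 238 CPM in nanobody against 12.7 CPM in control (3.78), but 3 cells held 54.4% of its 1756 UMIs. In other elav-positive cells Arc1 stood at 0.27. The secreted proteins Obp99a (1.32) and Obp44a (1.17) also rested on few cells, with 75.1% and 78.3% of their nanobody UMIs in 3 cells each, and Obp44a stood at -1.10 once likely doublets were removed. Hsp70Ab (1.08) and Hsp26 (1.00) were at similar log2 ratios in other elav-positive cells, 1.07 and 0.97. Lowest in nanobody was the neuropeptide Dh31, at 1.22 CPM in nanobody against 57.7 CPM in control (-3.33), where 3 control cells held 98.6% of 351 UMIs. Ldh (-1.83), ps (-1.30), jdp (-1.29) and CG11000 (-1.29) followed. The 5 genes leading cluster 13, Ldh, Cbp53E, Pglym78, IA-2 and CG11000, were all among the 14 lower genes, as was ps, also high in that cluster. An Ldh UMI was seen in 5.80% of acj6-positive cells in nanobody, against 6.54% in control, and within cluster 13 Ldh was at 1756 CPM in nanobody against 3287 CPM in control. None of the 14 lower genes was past 2-fold lower in other elav-positive cells, and 3 of the 5 higher genes were past 2-fold higher in them. How many of all 2815 genes were past 2-fold in other elav-positive cells was not counted. These counts therefore do not show that a change was particular to acj6-positive cells.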

How the data were processed

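Single-cell 3′ libraries of sorted larval brain cells were deposited by the authors as raw count matrices, 1 per genotype, holding UMI counts per gene and barcode; per the file headers they were made with Cell Ranger 9.0.1. Its genome build, annotation and intron setting are not given in the sources used here, and Seurat is named in the submitters' processing notes without settings. Gene positions come from Ensembl release 115 (BDGP6.54); 13976 of 13988 features matched by ID. The members, the 20 gene lists and the tests were chosen with earlier results of these data known.

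Counts were summed per library and cell set and tested with edgeR 4.0.16 (R 4.3.3; TMM, filterByExpr, quasi-likelihood, Benjamini-Hochberg, threshold 0.05), with library as a block because each library gives both sets. acj6, dpn, repo, unc-4 and elav were not tested where they chose the cells; VAChT and ChAT were not tested between VAChT cells. The step was tested on simulated data. Named genes were the 12 highest and 12 lowest log2 fold changes (5 and 5 in the other comparisons) among called genes with at least 50 CPM in the higher set and 1 direction in all 3 libraries, and list genes. Genotypes were compared as CPM ratios after adding 5 CPM, with exact Poisson or binomial intervals at 95%, which cover counting error only. Doublets were scored against simulated sums (0.4% per 1000 cells) and kept in the main results. Clusters used Leiden (leidenalg 0.10.2; 1000 variable genes without acj6, 20 components, 15 neighbours, resolution 0.5). Alternatives were DESeq2 1.42.0, RLE scaling, other thresholds, filters, cell sets and left-out libraries.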

Additional observations from a re-analysis of the deposited data

How the results depend on the processing

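Library was a term in each test because it gives both cell sets. Without this block, 1208 genes were higher and 1247 lower against other elav-positive cells, 113 and 67 against unc-4-positive cells, and 74 and 210 between VAChT cells. Matching on nSyb gave 375 higher and 572 lower. Leaving out 1 library gave 111 to 500 higher and 88 to 321 lower against unc-4-positive cells, and 191 to 298 higher and 536 to 608 lower between VAChT cells, where DESeq2 called 247 higher and leaving out cells of 10 or more nSyb UMIs, an alternative chosen after seeing the data, gave 454 lower. With both sets holding nSyb, which itself chose those cells, the sign turned for VGAT (-0.21), nSyb (-0.23), brp (-0.34), cpx (-0.60), Syx1A (-0.21), dac (-0.071), Lim1 (-0.41) and Imp (-0.36). Without nSyb it turned for VGlut (0.38), cpx (-0.095), SoxN (0.11) and Imp (-0.67), and without cells of 10 or more nSyb UMIs for Imp (-0.00028). Past 2-fold in mud were 27 genes higher and 14 lower at 20 CPM, 1 lower with TMM scaling and 4 lower at 5 acj6 UMIs; in nanobody 8 were higher at 20 CPM and 2 with doublets removed, where Obp44a was at -1.10. Without thinning, VAChT was seen in 70.7%, 69.2% and 68.8% of acj6-positive cells in mud, nanobody and control, VGlut in 8.76%, 7.22% and 5.34%, and Gad1 in 2.88% in mud and 1.07% in control. The causes of these shifts were not tested.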
